A study of Mus musculus with 6 samples.

Results

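The NF-κB system was examined through 10 genes in mouse articular cartilage, namely the 5 NF-κB subunit genes Nfkb1, Nfkb2, Rela, Relb and Rel, the 3 inhibitor genes Nfkbia, Nfkbie and Tnfaip3, the IκB family gene Nfkbiz, and the cytokine gene Tnf. They were taken from the deposited table by their gene names. All 10 of 10 were found among the 34709 genes of the table, and all 10 passed the filter of a mean of at least 0.5 FPKM that left 15373 genes for testing. FPKM is the number of fragments divided by transcript length and library size, and therefore allows levels of different genes to be set side by side.

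The series compared knockout (KO) mice with wildtype mice. There were 3 libraries for each group, and the study describes the sequenced cartilage of both groups as coming from mice of 18 months. Its methods describe male littermates for the age-related model. The cells in which the knocked-out gene was lost, and the number of animals behind each library, were not given in the sources used here. P-values therefore measure the spread between these samples, which may be partly technical.

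Total counts were between 52268311 and 63331135 per library. KO replicates 2 and 3 differed far less than any other pair. The median squared difference of their scaled counts was 5.77 times the Poisson value, against 23.8 to 85.0 times in the other 14 pairs. When the counts were divided by 4 it was 1.44 times, against 5.94 to 21.2 times in the other pairs. They were counted as 1 sample, so 2 KO samples were compared with 3 wildtype samples. KO replicate 1 lay close to wildtype along principal component 1 (45.9% of the variance), at −24.6 against −26.2 to −23.9, whereas KO replicates 2 and 3 were at 50.7 and 49.6. Results that differ between KO replicate 1 and the merged KO sample are given for each. The cartilage genes Col2a1, Acan and Prg4 were present, with Acan at 13.2 to 22.8 FPKM, but the summed level of 13 chondrocyte markers (557 to 1244 FPKM) was far below that of 13 neutrophil markers (27152 to 62634 FPKM).

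NF-κB is a family of dimeric transcription factors. In resting cells the dimers are held in the cytoplasm by IκB proteins, and IκB kinase, activated by signals from receptors for TNF, interleukin-1 or bacterial products, marks IκB for destruction so that the dimers enter the nucleus. Several of the genes they switch on, such as Nfkbia and Tnfaip3, encode inhibitors of the same route, which gives a negative feedback. In cartilage the pathway is known for inducing matrix-degrading enzymes and inflammatory mediators.

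NF-κB dimers bind DNA at κB motifs, and the promoters of the 10 genes were searched for the letters of such motifs. Promoter windows of 300 bases were available for 7 of the 10 genes from RefSeq (GRCm38.p6), in 10 windows, since a gene may have more than 1 start. Nfkb1, Relb and Nfkbiz were not matched. A search on both strands for GGG and TTCC with any 3 bases between them (GGAA and CCC on the other strand) found a match in 5 of the 7 genes, against 6.31% of all genes with windows. Matches lay in 8 of their 10 windows, against 5.56% of all 32851 windows. A stricter form, GGG and TTTCC with any 2 bases between, whose matches are all contained in the first search, was found in 4 of 7 genes, against 1.89% of all genes. It was found in 6 of the 10 windows, against 1.63% of all windows. A looser form, GGG and CC with any 5 bases between, was found in 7 of 7 genes, but also in 53.5% of all genes and 50.8% of all windows. Stretches that hold a match of the first search are printed on the strand of the gene, with the match in capitals, because the 3 inhibitor genes (Nfkbia, Tnfaip3 and Nfkbie) and 2 of the subunit genes (Rel and Nfkb2) hold them. A match is a description of letters and not a measured binding site.

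Nfkbia, chr12:55492648-55492717, minus strand: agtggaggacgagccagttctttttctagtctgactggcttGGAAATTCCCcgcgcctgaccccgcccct
Tnfaip3, chr10:19015411-19015480, minus strand: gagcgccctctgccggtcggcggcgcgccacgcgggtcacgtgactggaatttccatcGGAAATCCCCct
Rel, chr11:23771021-23771090, minus strand: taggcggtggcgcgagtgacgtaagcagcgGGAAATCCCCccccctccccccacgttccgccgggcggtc
Nfkbie, chr17:45555564-45555633, plus strand: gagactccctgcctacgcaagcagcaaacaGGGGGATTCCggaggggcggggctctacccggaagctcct
Nfkb2, the first start, chr19:46304689-46304718, plus strand: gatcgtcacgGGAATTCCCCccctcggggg
Nfkb2, the third start, chr19:46305695-46305724, plus strand: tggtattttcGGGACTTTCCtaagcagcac

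The printed matches began 29 bases upstream of the start in Nfkbia, 12 bases in Tnfaip3, 91 bases in Rel and 106 bases in Nfkbie, and 38 and 225 bases upstream of the first and of the third start in Nfkb2. These starts are those of RefSeq. Both Nfkb2 stretches lie inside the deposited span of the gene, which begins at 46304320. The Tnfaip3 stretch lies inside the gene in another annotation (GENCODE M21), where its span reaches 19015657. The same search found further matches that are not printed. They lay in Tnfaip3 33 bases past its first start and 90 bases upstream of its second, and in Nfkb2 11 bases upstream of the first start and 236 bases upstream of the second. The windows of the second and the third start of Nfkb2 overlap and share the match printed for the latter. In the windows of Rela and Tnf, the letters of the first search were not found.

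The levels of the 10 genes were compared first. The inhibitor Nfkbia, which encodes IκBα, had the highest level, 32.2 ± 3.64 FPKM (SD, n = 5 samples). It was followed by Rela, which encodes the transactivating subunit p65, at 17.6 ± 1.20 FPKM, Nfkb1, which encodes p105 and its product p50, at 10.1 ± 1.71 FPKM, and Nfkb2, which encodes p100 and its product p52, at 8.15 ± 0.480 FPKM. The ranges of Nfkbia and Rela did not overlap, nor did those of Rela and Nfkb1 or of Nfkb2 and the next gene, whereas Nfkb1 and Nfkb2 overlapped in range although Nfkb1 was higher in 5 of 5 samples. Below them, the neighbours in the order overlapped throughout: Nfkbie had 6.07 ± 1.22 FPKM, Nfkbiz 5.76 ± 0.659 FPKM, Rel 4.93 ± 1.09 FPKM, Tnf 3.25 ± 0.907 FPKM, Relb 3.21 ± 0.556 FPKM and Tnfaip3 2.85 ± 0.383 FPKM. The counts behind these values ran from 233 (Tnf, wildtype replicate 3) to 11065 (Nfkb1, KO replicate 2).

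**Figure D1:**
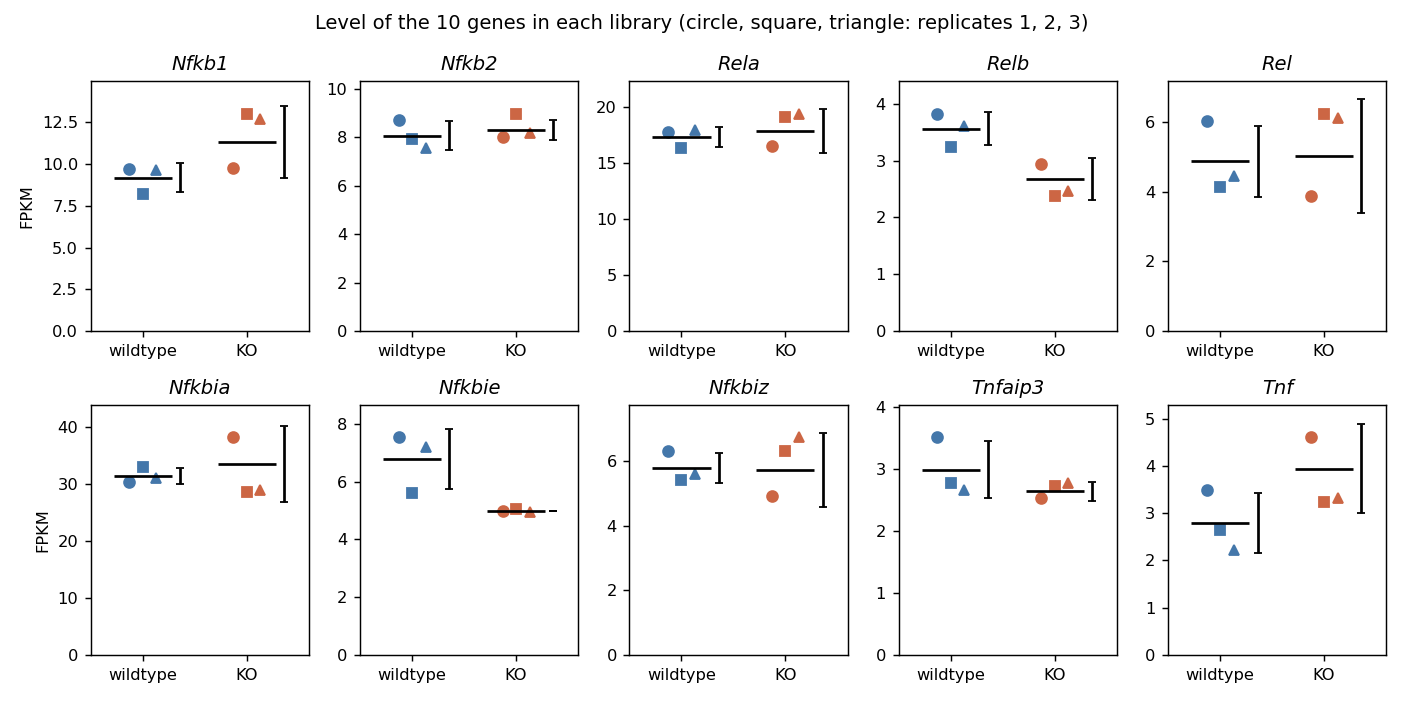
Level in FPKM (y axis) of each of the 10 genes in the 3 wildtype libraries (blue) and the 3 KO libraries (orange), with circles, squares and triangles for replicates 1, 2 and 3. Horizontal lines are group means and bars are 1 SD, over 3 wildtype samples and over 2 KO samples with KO replicates 2 and 3 merged; on this scale Nfkb1 lay above the wildtype libraries in every KO library, Relb and Nfkbie lay below.

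Differential gene expression analyses between KO and wildtype cartilage gave no call for the NF-κB genes. With edgeR's quasi-likelihood test and Benjamini-Hochberg adjustment, 0 of 10 had an adjusted p under 0.05, where the share among all tested genes was 0 percent as well (lowest adjusted p of all genes 0.105). At an unadjusted p under 0.05 there was 1 of 10, Nfkbie, against 13.7% of all tested genes. DESeq2 on the same samples also gave 0 of 10 adjusted, with 2 of 10 unadjusted (Nfkb1 and Nfkbie, against 16.1%), and called 880 of all genes (5.72%). Limma gave 0 of 10 at either limit with both pseudocounts, where it called 0 of all genes and had 11.6% (pseudocount 1) and 11.4% (pseudocount 0.1) of them at an unadjusted p under 0.05. Of the 10 genes, 6 were higher in KO, against 47.5% of all genes, and their median log2 difference was 0.06, against −0.02 for all genes. With the 6 libraries taken as labelled, 0 of 10 passed the adjusted limit (3.71% of all genes) and 3 of 10 had an unadjusted p under 0.05 (Nfkb1, Relb and Nfkbie, against 22.2%). With the 6 libraries in DESeq2, a fit chosen after the data were seen, 2 of 10 passed the adjusted limit, against 13.8% of all genes, and 3 of 10 had an unadjusted p under 0.05, against 24.1%. The former were Nfkb1 (adjusted p = 0.0379) and Nfkbie (adjusted p = 0.0382). The FPKM levels of the 2 groups did not overlap over the 6 libraries in 3 of 10 genes, against 25% of all tested genes. KO was above wildtype in 1 of them (11.3% of all) and below in the other two (13.7% of all).

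Among the NF-κB subunit genes, Nfkb1 and Relb had the largest differences, in opposite directions. Nfkb1 (chromosome 3, 135584655 to 135691546, minus strand, GRCm38) was at 9.80, 13.0 and 12.7 FPKM in KO replicates 1 to 3 and at 9.72, 8.20 and 9.68 FPKM in wildtype replicates 1 to 3. All KO libraries were above all wildtype libraries, but KO replicate 1 exceeded the highest wildtype library by less than 0.1 FPKM. On counts scaled to the library total the groups overlapped, with 132 CPM in KO replicate 1 and 134 CPM in wildtype replicate 1. The log2 difference was 0.32 ± 0.137 (SE), with a 95% interval from −0.01 to 0.64 (edgeR adjusted p = 0.374). It was 0.17 for KO replicate 1 alone and 0.45 for the merged KO replicates 2 and 3 alone. Nfkb1 overlaps Gm43430 on the same strand, and reads of the 2 may not have been told apart.

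Relb encodes the subunit that pairs with p52 in the non-canonical route, which runs downstream of receptors such as the lymphotoxin β receptor and CD40. Relb (chromosome 7, 19606217 to 19629438, minus strand) was at 2.93, 2.37 and 2.46 FPKM in the KO libraries and at 3.82, 3.24 and 3.61 FPKM in the wildtype libraries. Every KO library was below every wildtype library. The log2 difference was −0.38 ± 0.189 (SE, 95% interval −0.83 to 0.06, edgeR adjusted p = 0.448), and was −0.19 for KO replicate 1 alone and −0.59 for the merged sample alone. Its partner Nfkb2 (chromosome 19, 46304320 to 46312385, plus strand) was at 8.01, 8.97 and 8.18 FPKM in KO and 8.72, 7.91 and 7.56 FPKM in wildtype, so the groups overlapped, with a log2 difference of 0.06 ± 0.126 (SE, 95% interval −0.24 to 0.36, edgeR adjusted p = 0.915). Nfkb2 overlaps AC114539.1 and Psd on the opposite strand, and its level is uncertain because the counting's use of strand was not given in the sources used here.

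Rela (chromosome 19, 5637483 to 5648130, plus strand) was the steadiest of these subunits beside Nfkb2, with 16.5, 19.1 and 19.4 FPKM in KO and 17.8, 16.4 and 17.99 FPKM in wildtype. The highest of its 6 libraries was 1.19 times the lowest. The log2 difference was 0.06 ± 0.117 (SE, 95% interval −0.22 to 0.34, edgeR adjusted p = 0.903). Rel, which encodes c-Rel, a subunit best known from lymphoid cells (chromosome 11, 23736847 to 23770970, minus strand), was at 3.86, 6.24 and 6.11 FPKM in KO and 6.04, 4.12 and 4.46 FPKM in wildtype. Here 1 KO library was lower than all others and 1 wildtype library was close to the other KO libraries. The log2 difference of 0.05 ± 0.218 (SE, edgeR adjusted p = 0.960) covered −0.25 for KO replicate 1 and 0.31 for the merged sample.

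**Figure D2:**
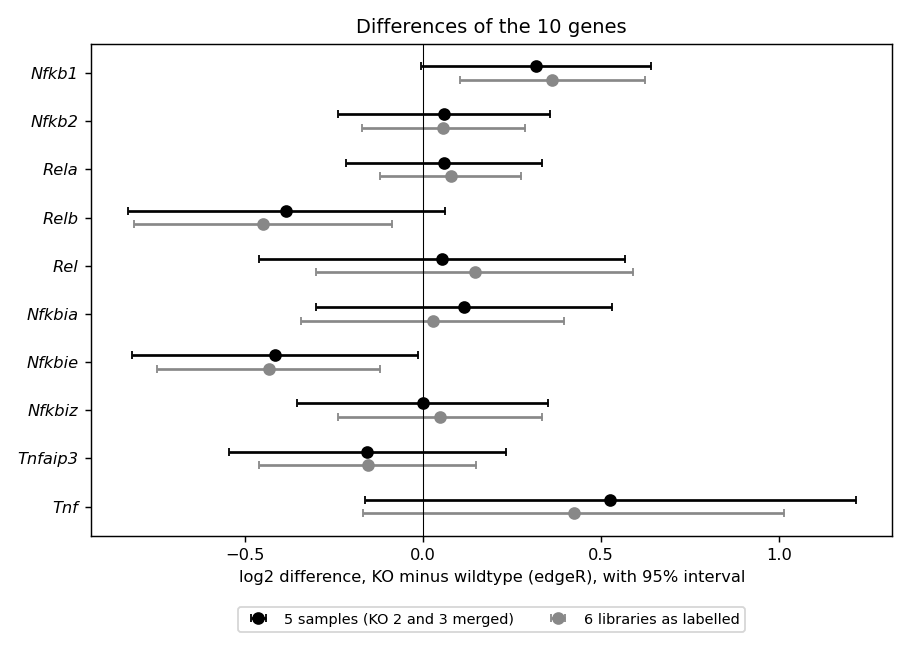
Log2 difference, KO minus wildtype (x axis), of each of the 10 genes (y axis), from edgeR, with 95% intervals; black, 2 KO samples against 3 wildtype samples after merging, grey, the 6 libraries as labelled. In the merged fit the interval of Nfkbie (−0.82 to −0.01) did not include 0, and the other 9 did.

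The inhibitors and Nfkbiz were compared next. Nfkbie, which encodes IκBε, a further cytoplasmic IκB protein (chromosome 17, 45555703 to 45563169, plus strand), was at 5.00, 5.06 and 4.95 FPKM in KO and at 7.54, 5.62 and 7.21 FPKM in wildtype. The KO libraries were nearly level with each other and all below the wildtype libraries. The log2 difference was −0.41 ± 0.170 (SE, 95% interval −0.82 to −0.01), a fold of 0.750, with an unadjusted p of 0.0445 and an adjusted p of 0.349 in edgeR. KO replicate 1 alone gave −0.35 and the merged sample alone −0.47. Without wildtype replicate 1 the log2 difference was −0.35 and the edgeR unadjusted p was 0.117, without wildtype replicate 3 they were −0.36 and 0.155, and without KO replicate 1 they were −0.47 and 0.0661.

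Nfkbia (chromosome 12, 55489410 to 55492647, minus strand), the fast-responding inhibitor, was at 38.1, 28.5 and 28.9 FPKM in KO and 30.3, 32.9 and 31.0 FPKM in wildtype. KO replicate 1 was above all wildtype libraries and KO replicates 2 and 3 below all of them. The log2 difference of 0.12 ± 0.177 (SE, 95% interval −0.30 to 0.53, edgeR adjusted p = 0.866) thus joined 0.36 for KO replicate 1 and −0.17 for the merged sample. Nfkbiz, which encodes the nuclear protein IκBζ that helps to switch on a subset of NF-κB targets (chromosome 16, 55811375 to 55838899, minus strand), had 4.92, 6.32 and 6.74 FPKM in KO and 6.32, 5.43 and 5.62 FPKM in wildtype. Its groups overlapped, and the values of −0.15 for KO replicate 1 and 0.14 for the merged sample gave a log2 difference of −0.001 ± 0.150 (SE, 95% interval −0.35 to 0.35, edgeR adjusted p = 0.999).

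Tnfaip3, which encodes the ubiquitin-editing enzyme A20 (chromosome 10, 19000910 to 19015410, minus strand), was at 2.53, 2.73 and 2.77 FPKM in KO and 3.51, 2.78 and 2.67 FPKM in wildtype. Wildtype replicate 1 stood above the other 5 libraries. The log2 difference was −0.16 ± 0.165 (SE, 95% interval −0.55 to 0.23, edgeR adjusted p = 0.777), and each KO sample alone gave −0.15. The difference was −0.05 without wildtype replicate 1 and −0.22 without wildtype replicate 3.

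Tnf, the gene of the cytokine that opens the pathway and is itself a target of it (chromosome 17, 35199381 to 35202007, minus strand), had the largest estimated difference and the widest interval of the 10 genes. It was at 4.60, 3.23 and 3.32 FPKM in KO and 3.49, 2.65 and 2.23 FPKM in wildtype. KO replicate 1 was the highest library, and wildtype replicate 1 was above the other KO libraries. The log2 difference was 0.53 ± 0.293 (SE, 95% interval −0.16 to 1.22, edgeR adjusted p = 0.506), and was 0.81 for KO replicate 1 alone and 0.19 for the merged sample alone.

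**Figure D3:**
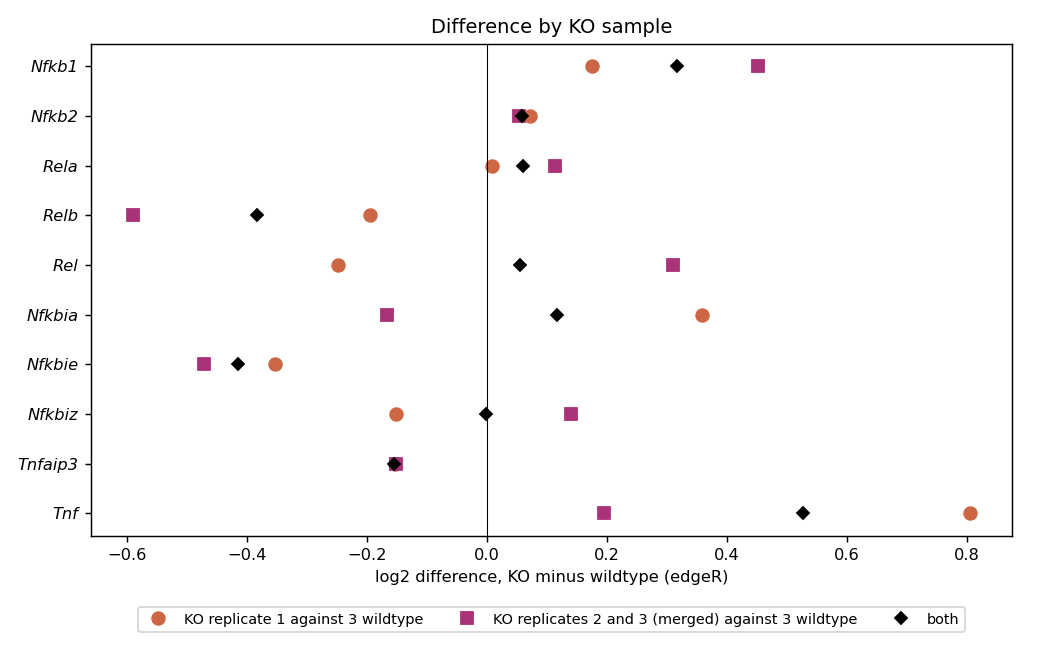
Log2 difference to the 3 wildtype samples (x axis) of each of the 10 genes (y axis), from edgeR, for KO replicate 1 alone (circles), for KO replicates 2 and 3 merged (squares) and for both (diamonds). Rel, Nfkbia and Nfkbiz lay on opposite sides of 0 in the KO samples (Nfkbia 0.36 and −0.17), and Tnf was higher by 0.81 and 0.19.

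The balance of inhibitors and factors was then described from summed levels, a choice made after the values were seen and given without a test. The 5 subunit genes summed to 41.1, 49.7 and 48.9 FPKM in KO and 46.1, 39.8 and 43.3 FPKM in wildtype. The 3 inhibitor genes, without Nfkbiz, summed to 45.7, 36.3 and 36.6 FPKM in KO and 41.3, 41.3 and 40.9 FPKM in wildtype. Inhibitors per factors were thus 1.11, 0.730 and 0.749 in KO and 0.897, 1.04 and 0.945 in wildtype, so the KO libraries lay on both sides of the wildtype range. Nfkbia made up 73.3% to 83.5% of the inhibitor sum, so this pattern largely repeats that of Nfkbia given above. The ratio of Relb to Nfkb1 was 0.299, 0.182 and 0.194 in KO and 0.394, 0.396 and 0.373 in wildtype, lower in every KO library. It had to be lower, because in FPKM Relb was below and Nfkb1 above wildtype in every KO library, and it is no separate result. The ratio of Nfkbie to Nfkbia was 0.131, 0.177 and 0.171 in KO and 0.249, 0.171 and 0.232 in wildtype, where wildtype replicate 2 fell in the KO range.

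Markers of blood cells moved with the groups. All 14 of 14 B cell markers had lower values in KO with an unadjusted p under 0.05 in edgeR, and their summed level was 115 to 168 FPKM in KO and 346 to 392 FPKM in wildtype. All 13 of 13 neutrophil markers had higher values in KO, 9 of them with an unadjusted p under 0.05, and their sum was 51277 to 62634 FPKM in KO and 27152 to 43914 FPKM in wildtype. Of 13 monocyte and macrophage markers, 2 were higher and 3 lower at that limit, with sums of 625 to 644 FPKM in KO and 560 to 662 FPKM in wildtype. Of 11 T and NK cell markers 1 was higher and 5 lower, with sums of 101 to 121 FPKM in KO and 84.1 to 99.8 FPKM in wildtype. The higher one, Nkg7, made up most of each sum, at 77.6, 99.7 and 99.97 FPKM in KO and 60.8, 67.1 and 52.8 FPKM in wildtype. Among all tested genes, 7.63% were higher and 6.07% lower at that limit. None of the markers in these lists was at 0 in all libraries. None of these markers had an adjusted p under 0.05 in the merged fit. With the 6 libraries as labelled, 12 of the 14 B cell markers were lower and 6 of the 13 neutrophil markers higher at that limit. The shares among all tested genes were 1.25% for lower and 2.46% for higher. The B cell sum ordered the groups as Relb and Nfkbie did, and so did the sums of erythroid and adipocyte markers. The neutrophil sum ordered the groups as Nfkb1 did in FPKM, and so did the T and NK cell sum. The order of libraries within the groups differed between markers. Of the KO libraries, replicate 1 had the highest neutrophil sum (62634 FPKM), and the highest Camp, Ngp, S100a8, S100a9, Retnlg and Ly6g. It had the lowest Elane, Mpo, Prtn3, Ltf, Mmp8, Csf3r and Cxcr2, and the lowest Nfkb1 (9.80 FPKM). Wildtype replicate 2 had the highest wildtype neutrophil sum (43914 FPKM) and the lowest wildtype Nfkb1 (8.20 FPKM). The B cell sum and Relb were highest of the KO libraries in replicate 1, and Nfkbie in replicate 2. In wildtype the B cell sum was lowest in replicate 3, and Relb and Nfkbie in replicate 2. The part of these cell types in these results was not tested. In bulk tissue, fewer cells of a type and less RNA per cell cannot be told apart.

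The other genes of the pathway were followed from the receptor inwards, using lists of their known roles. None of them passed the adjusted limit in the merged fit, so counts at an unadjusted p under 0.05 are given, beside 7.63% of all tested genes for higher and 6.07% for lower values. The median log2 difference of all tested genes was −0.02. Of 15 tested receptors and ligands, 5 were higher (Tnfrsf1a, Tnfrsf1b, Ltbr, Tnfsf13b and Tlr2) and 3 lower (Lta, Cd40 and Tnfrsf13c), with a median log2 difference of 0.18. With the 6 libraries as labelled, 4 of the 15 were higher and 2 lower at an adjusted p under 0.05 in edgeR, beside 2.46% and 1.25% of all genes. Tnfrsf1a, the main receptor for TNF, was at 50.9, 67.9 and 66.6 FPKM in KO and 41.1, 40.6 and 44.6 FPKM in wildtype. Every KO library was above every wildtype library. Tnfrsf1b, the other TNF receptor, was at 21.8, 30.4 and 29.0 FPKM in KO and 20.6, 18.5 and 22.0 FPKM in wildtype, so that KO replicate 1 was within the wildtype range. These 2 receptors were chosen after their values were seen, because they bind the product of Tnf.

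Tlr2, a receptor for bacterial lipoproteins, was at 14.7, 20.7 and 21.3 FPKM in KO and 11.5, 10.6 and 9.77 FPKM in wildtype (log2 difference 0.76 ± 0.159, SE, edgeR adjusted p = 0.166, and 0.0358 with the 6 libraries as labelled). Tnfsf13b, the B cell survival factor BAFF, was at 3.85, 3.69 and 3.61 FPKM in KO and 2.74, 2.34 and 2.40 FPKM in wildtype (0.61 ± 0.149, SE). Tnfrsf13c, its receptor on B cells, was at 2.22, 2.09 and 2.01 FPKM in KO and 6.71, 5.12 and 5.19 FPKM in wildtype (−1.38 ± 0.218, SE, edgeR adjusted p = 0.166, and 0.0287 with the 6 libraries). Ligand and receptor thus had opposite signs, beside the B cell sum given above.

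Of 17 adaptor genes, 4 were higher (Myd88, Irak3, Irak4 and Traf3) and 1 was lower (Traf5), with a median log2 difference of 0.14. Myd88, the adaptor of Toll-like and interleukin-1 receptors, was at 26.1, 42.4 and 40.8 FPKM in KO and 23.6, 22.0 and 22.7 FPKM in wildtype (log2 difference 0.58 ± 0.173, SE, edgeR adjusted p = 0.222). Irak3, which restrains the same receptors, was at 10.3, 13.5 and 15.0 FPKM in KO and 8.38, 7.56 and 8.35 FPKM in wildtype (0.61 ± 0.147, SE). Traf5, an adaptor of TNF receptor family members, was at 1.96, 2.14 and 2.27 FPKM in KO and 3.42, 2.87 and 3.41 FPKM in wildtype (−0.61 ± 0.168, SE). With the 6 libraries as labelled, Irak3 and Traf5 were the members of this list past the adjusted limit in edgeR (adjusted p = 0.0399 and 0.0474).

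Of 10 kinase genes of the IKK level, Ikbke was higher and Tab3 lower, with a median log2 difference of 0.06. Ikbke, an IKK-related kinase, was at 5.66, 8.15 and 7.81 FPKM in KO and 4.25, 3.90 and 4.12 FPKM in wildtype (log2 difference 0.75 ± 0.146, SE, edgeR adjusted p = 0.166, and 0.0358 with the 6 libraries). Tab3, which links the kinase TAK1 to ubiquitin chains, was at 4.29, 5.74 and 5.01 FPKM in KO and 7.40, 5.43 and 6.67 FPKM in wildtype (−0.41 ± 0.156, SE), with some overlap. Tbk1, the relative of Ikbke, had 12.3, 16.5 and 14.6 FPKM in KO and 13.7, 11.1 and 12.2 FPKM in wildtype, with overlapping groups (0.19 ± 0.135, SE).

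The remaining IκB family genes all had higher estimates in KO, with none of 3 under the unadjusted limit and a median log2 difference of 0.35. These values stand beside those of Nfkbie (−0.41) and Nfkbia (0.12). Nfkbib, which encodes IκBβ, was at 7.28, 7.22 and 7.60 FPKM in KO and 6.25, 6.54 and 5.30 FPKM in wildtype, without overlap (0.30 ± 0.176, SE, edgeR adjusted p = 0.533). Nfkbid, which encodes the nuclear protein IκBNS, was at 8.49, 8.23 and 7.26 FPKM in KO and 7.48, 5.22 and 6.83 FPKM in wildtype (0.35 ± 0.188, SE). Bcl3, a nuclear IκB that binds p50 and p52, was at 4.18, 10.3 and 9.37 FPKM in KO and 6.14, 4.44 and 5.21 FPKM in wildtype (0.41 ± 0.317, SE). Bcl3 was thus lowest in 1 KO sample and highest in the other, as Rel was.

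Of 10 other genes of ubiquitin editing, 1 was higher and none lower. This was N4bp1, a ubiquitin-binding inhibitor of the pathway, at 5.10, 7.83 and 8.25 FPKM in KO and 5.17, 3.91 and 4.76 FPKM in wildtype (log2 difference 0.52 ± 0.186, SE). KO replicate 1 was within the wildtype range. Rnf11, a partner of A20, was at 24.0, 24.2 and 23.7 FPKM in KO and 28.3, 27.9 and 27.0 FPKM in wildtype (−0.19 ± 0.117, SE, edgeR adjusted p = 0.559). Tnip1, which binds A20, was at 10.6, 11.02 and 11.7 FPKM in KO and 10.5, 9.35 and 9.69 FPKM in wildtype (0.17 ± 0.121, SE). The median of this list was 0.08.

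**Figure D4:**
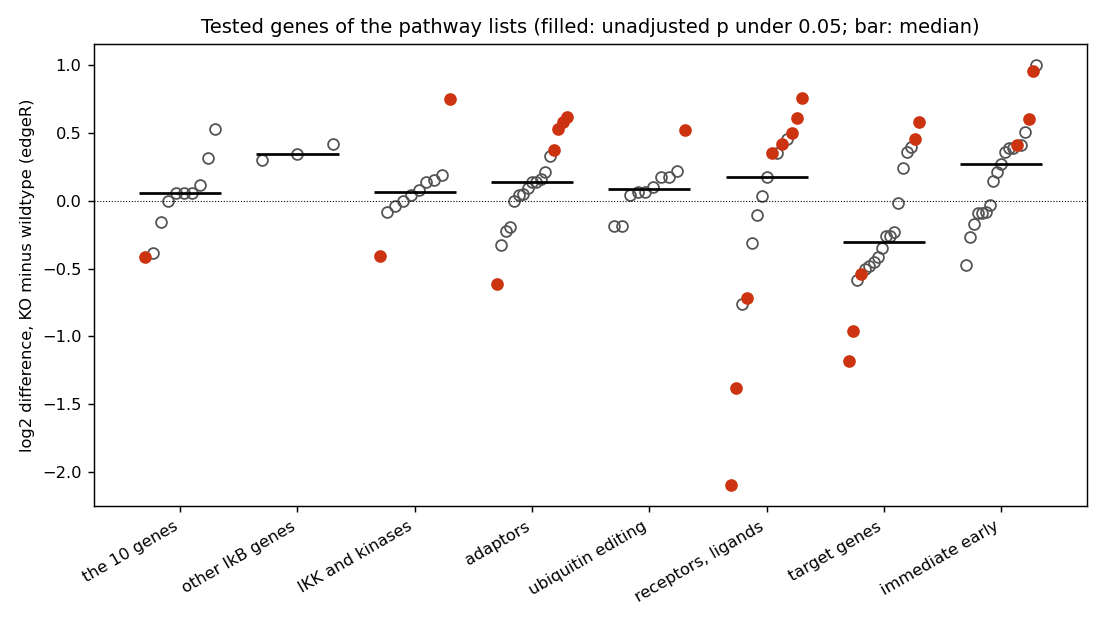
Log2 difference, KO minus wildtype (y axis, edgeR, 2 KO against 3 wildtype samples), of each tested gene in the lists of the NF-κB pathway (x axis). Filled points had an unadjusted p under 0.05, open points did not, and bars are list medians, which ran from −0.30 (18 target genes) to 0.35 (3 other IκB genes).

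Target genes of NF-κB did not move one way. Of 24 listed, 18 were tested, because Cxcl1, Cxcl2, Il6, Ptgs2, Nos2 and Ccl20 were under the limit of 0.5 FPKM. There were 2 higher (Il1b and Marcksl1) and 3 lower (Vcam1, Mmp3 and Cd83) at an unadjusted p under 0.05. A log2 difference above 0 was found in 5 of 18, against 47.5% of all tested genes. The median was −0.30, against −0.02 for all tested genes, so more of these target genes had lower than higher estimates in KO. Il1b, the gene of interleukin-1β, was at 22.2, 24.7 and 26.6 FPKM in KO and 14.4, 18.4 and 15.7 FPKM in wildtype (0.58 ± 0.163, SE, edgeR adjusted p = 0.203). Cd83, a surface protein of mature dendritic and activated B cells, was at 5.10, 2.54 and 2.94 FPKM in KO and 8.67, 7.501 and 7.33 FPKM in wildtype (−0.96 ± 0.295, SE, edgeR adjusted p = 0.232). Mmp3, the gene of the matrix protease stromelysin-1, was at 0.982, 0.657 and 0.403 FPKM in KO and 1.51, 2.06 and 1.70 FPKM in wildtype (−1.18 ± 0.390, SE, edgeR adjusted p = 0.258). All KO libraries were on the same side of all wildtype libraries in these 3 genes. They were named for the smallest unadjusted p of the list in edgeR, which favours such genes, and 25% of all tested genes did not overlap either.

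Immediate-early genes, which cells induce within minutes of stimulation, were examined because Nfkbia and Tnf are also fast-responding genes. The list of 19 also held the heat-shock genes Hspa1a, Hspa1b and Dnajb1, which are stress genes of another kind. Of the 19, 3 were higher (Fos, Ier2 and Klf4) and none lower at an unadjusted p under 0.05, with a median log2 difference of 0.27. Their summed level was 378, 266 and 257 FPKM in KO and 280 to 307 FPKM in wildtype. KO replicate 1 had the highest sum of the 6 libraries, as it had the highest Nfkbia and Tnf, and the part of this in those values was not tested. Fos, a subunit of the factor AP-1, was at 35.8, 16.6 and 14.7 FPKM in KO and 12.1, 11.9 and 17.0 FPKM in wildtype (0.95 ± 0.355, SE). Ier2 was at 40.1, 29.5 and 30.1 FPKM in KO and 19.2, 28.5 and 22.3 FPKM in wildtype (0.60 ± 0.237, SE). Klf4, a zinc finger factor, was at 14.8, 16.1 and 15.2 FPKM in KO and 12.6, 9.87 and 12.5 FPKM in wildtype (0.41 ± 0.138, SE).

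The genes whose pattern over the 6 libraries was most like that of 3 members were listed, by the root mean square distance of centred log2 CPM, among genes that averaged 5 FPKM or more. For Rela, the nearest of 7613 genes were Cdc23 (distance 0.0075), Shc1 (0.0160) and Elf2 (0.0198), with Rela itself spanning 0.16 on the log2 scale. For Nfkbia, whose range was 0.53, they were Alg5 (0.0444), Wsb2 (0.0451) and Rce1 (0.0457). For Tnf, with a range of 1.12, the nearest of 7614 genes were Selenoo (0.154), CAAA01066123.1 (0.156) and Egln3 (0.159). Genes that vary little lie near each other by this measure whatever their function, and none of the genes named was a member of the pathway lists.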

How the data were processed

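RNA sequencing of articular cartilage from KO and wildtype mice was analysed from the table the authors deposited, which gives FPKM values and counts by gene and library. The knocked-out gene is not reported here. The submitters' processing notes name cutadapt 1.9, HISAT2 2.0.4, UMI-tools, StringTie 1.3.4d, DESeq2 and edgeR without their roles. The deposited FPKM values were scaled by the authors within each library. The deposited counts were treated as estimated counts, since whole values piled up at 4 (6596 values, against 4170 at 3 and 2332 at 5). All per-sample columns were matched by name. Gene positions are those of the file (GRCm38), and how the molecular identifiers of the adapters were used was not given in the sources used here.

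Groups and replicate numbers came from the sample titles. KO replicates 2 and 3 were merged by their mean count. EdgeR 4.0.16 (quasi-likelihood, TMM; R 4.3.3) was fitted to all 15373 genes that averaged 0.5 FPKM or more, with Benjamini-Hochberg adjustment at 0.05. Log2 differences are KO minus wildtype, with standard errors derived from the F values. Alternatives were the 6 libraries as labelled, DESeq2 1.42.0, median-of-ratios scaling, no filter, a minimum of 5 FPKM, limma 3.58.1 on log2(FPKM + 1) and log2(FPKM + 0.1), a replicate block and each library left out. Counts divided by 4 and DESeq2 on the 6 libraries were added after the data were seen. The scripts were tested on simulated data. Intervals of 95% reflect the spread between samples.

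The members and gene lists were chosen with earlier results of these data known. Genes named were the 10 members, up to 3 genes of each pathway list with the smallest unadjusted p, and the 3 genes most like Rela, Nfkbia and Tnf. Others were named after their values were seen. The marker lists also held erythroid, osteoblast, osteoclast, endothelial, fibroblast, muscle and adipocyte genes. Promoter windows (250 bases before to 50 after the start) came from RefSeq.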

Additional observations from a re-analysis of the deposited data

How the results depend on the processing

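With 2 KO against 3 wildtype samples, the 0 genes called at an adjusted p under 0.05 became 570 with the 6 libraries as labelled, 880 with DESeq2, 21 with no filter, 2118 with DESeq2 on the 6 libraries (added after the data were seen) and 9 without KO replicates 2 and 3 together. Leaving out 1 library gave 0 to 352, with 352 without KO replicate 1 and 1 without wildtype replicate 2 or 3. When KO replicate 1 is left out, the remaining merged sample is assumed to vary like the wildtype samples, and likewise when KO replicates 2 and 3 are left out. The cause of these shifts was not tested.

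Of the 10 NF-κB genes, 0 passed the adjusted limit under every setting but DESeq2 on the 6 libraries, with 2 (Nfkb1, log2 difference 0.37, and Nfkbie, −0.42). At an unadjusted p under 0.05, the count of 1 (13.7% of all tested genes) became 3 with the 6 libraries (22.2%), 3 with DESeq2 on them (24.1%), 2 with DESeq2 (16.1%), 2 with median-of-ratios scaling (13.7%), 0 with no filter (8.06%), 0 with limma at a pseudocount of 1 (11.6%) or of 0.1 (11.4%), and 0 to 2 with 1 library left out (9% to 20.7%). The minimum of 5 FPKM removed Relb, Tnf and Tnfaip3. The number of members higher in KO was 5 to 7 throughout.

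Rel turned from 0.05 to −0.028 without wildtype replicate 2 and to −0.25 without KO replicates 2 and 3, with −0.028 to 0.31 when 1 library was left out. Nfkbia turned from 0.12 to −0.17 without KO replicate 1, with −0.17 to 0.18 when 1 library was left out. Nfkbiz, at −0.001, became 0.048 with the 6 libraries, 0.011 with DESeq2, 0.011 with median-of-ratios scaling, 0.039 with no filter, 0.042 with the replicate block and 0.059 with DESeq2 on the 6 libraries. Leaving out 1 library gave −0.027 to 0.14 for it, above 0 without KO replicate 1, KO replicate 2 or wildtype replicate 1. The other 7 members kept their sign under every setting in which they were tested.

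The replicate block, fitted to the 6 libraries, gave 0 called genes and 3 members with an unadjusted p under 0.05, against 18.3% of all tested genes. The titles give same-numbered samples a shared number, and whether these were littermates was not given in the sources used here. After the mean of each group was subtracted from each gene's log2 CPM, same-numbered samples had correlations of −0.145, −0.108 and −0.058 over the tested genes.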

Other observations

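Markers of further cell types were summed as well. Erythroid markers, the genes of haemoglobin and red cell maturation, were lower in KO in 8 of 8 tested, 4 of them with an unadjusted p under 0.05 in edgeR, and their summed level was 35758, 14835 and 14691 FPKM in KO and 41346 to 65091 FPKM in wildtype. Adipocyte markers were lower in 4 of 4 tested, all at that limit, with sums of 20.0 to 52.2 FPKM in KO and 73.5 to 201 FPKM in wildtype. Osteoclast markers were lower in 3 of 8 and endothelial markers in 2 of 7 at that limit. Among all tested genes, 6.07% were lower and 7.63% higher at that limit. Fibroblast markers had 1 higher and 1 lower of 7. Osteoblast and chondrocyte markers had none of 10 and none of 11 tested. Muscle markers had none of 6, with sums of 135, 4.37 and 3.57 FPKM in KO and 31.7, 52.9 and 257 FPKM in wildtype, so that KO replicates 2 and 3 were the lowest libraries. None of these genes passed the adjusted limit with 2 KO against 3 wildtype samples.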
